A study of Rattus norvegicus with 6 samples.

Results

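A set of 7 genes was followed at healing rat colonic anastomoses: the growth factor Vegfa (ENSRNOG00000019598), its receptors Flt1 (ENSRNOG00000000940) and Kdr (ENSRNOG00000046829), the endothelial product Vwf (ENSRNOG00000019689), the oxygen-responsive transcription factor subunit Hif1a (ENSRNOG00000008292), and the glucose-use genes Slc2a1 (ENSRNOG00000007284) and Ldha (ENSRNOG00000013009). They were chosen by Ensembl identifier and make up 7 of the 21417 genes in the deposited expression table; all 7 were above 0 in every library. The table carries no gene symbols, so each name rests on the identifier pairing used to choose the genes, and the reference table used here, which holds 0 Ensembl identifiers, could not check it. The animals were male Sprague-Dawley rats of 200 to 230 g, an outbred laboratory strain, and the labels give no age. In 3 libraries the colon had been joined end to end with magnets that hold the cut ends under pressure until they unite (magnetic compression anastomosis, MCA). In 3 control libraries the join had been sewn (suture). Tissue was excised at the join 2 weeks after surgery in both groups and sequenced as bulk RNA, so each value is an average over every cell type in the piece. Libraries within a group are labelled as biological replicates, and whether a library pooled animals is not stated.

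New vessels are needed to supply a wound. Vegfa is secreted by many cell types, often when oxygen is short, and acts on endothelial cells through Kdr, the receptor that carries most of the growth signal, while Flt1 binds the ligand tightly, signals weakly and also exists as a soluble trap. Hif1a encodes the regulated subunit of hypoxia-inducible factor; oxygen controls it mainly by destruction of the protein, so its transcript level is not a measure of its activity. Vegfa, Slc2a1 and Ldha are textbook targets of that factor, which binds DNA at a short core written ACGTG or GCGTG.

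The sequences just before the transcription starts of the receptor pair and of the glucose-use pair are shown because the members of each pair kept close to each other across libraries. They are the 250 bases before the start, 5′ to 3′, from RefSeq on build GRCr8, with ACGTG and GCGTG on either strand in capitals (CACGT and CACGC when read on the other strand). For the deposited values the build is not given in the sources used here. All 4 genes lie on the plus strand: Flt1 at chr12:12333180-12333429, Kdr at chr14:32571813-32572062, Slc2a1 at chr5:138002272-138002521 and Ldha at chr1:106507842-106508091.
Flt1: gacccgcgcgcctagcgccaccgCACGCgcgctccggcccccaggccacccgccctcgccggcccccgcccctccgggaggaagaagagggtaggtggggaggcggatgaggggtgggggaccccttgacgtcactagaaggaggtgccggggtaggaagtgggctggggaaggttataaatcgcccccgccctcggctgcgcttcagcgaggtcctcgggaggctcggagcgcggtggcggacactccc
Kdr: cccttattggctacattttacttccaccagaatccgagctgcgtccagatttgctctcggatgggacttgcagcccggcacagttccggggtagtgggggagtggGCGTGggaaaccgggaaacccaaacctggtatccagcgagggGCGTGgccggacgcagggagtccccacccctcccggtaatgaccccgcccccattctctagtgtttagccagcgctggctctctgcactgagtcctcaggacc
Slc2a1: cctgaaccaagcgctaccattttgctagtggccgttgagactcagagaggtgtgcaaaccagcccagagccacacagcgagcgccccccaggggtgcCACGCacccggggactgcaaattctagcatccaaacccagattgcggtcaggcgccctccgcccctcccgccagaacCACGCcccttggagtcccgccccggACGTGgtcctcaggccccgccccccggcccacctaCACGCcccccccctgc
Ldha: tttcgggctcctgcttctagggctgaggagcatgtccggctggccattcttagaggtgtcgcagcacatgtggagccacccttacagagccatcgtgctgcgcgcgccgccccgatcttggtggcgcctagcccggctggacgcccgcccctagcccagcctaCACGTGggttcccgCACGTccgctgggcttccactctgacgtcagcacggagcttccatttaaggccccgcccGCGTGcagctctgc
ACGTG was found in the Slc2a1 and Ldha windows but in neither receptor window. It occurred at 1 place before Slc2a1. Ldha had 3 matches, of which 2 overlap in a CACGTG that reads the same on both strands. GCGTG was present in all 4, with 1 match before Flt1, 2 before Kdr, 3 before Slc2a1 and 1 before Ldha. Over 33469 rat windows of the same length, 16.57% held ACGTG, 25.89% held GCGTG and 36.7% held at least 1 of them. G and C made up 73.2% of the Flt1 window, 61.6% of Kdr, 68.4% of Slc2a1 and 66.4% of Ldha. The windows behind those shares were not matched for this content, so the shares do not measure enrichment. The Hif1a window held ACGTG 3 times, again with an overlapping pair, and neither window listed for Vegfa held either core. A match is only a description of these letters, and elements outside the window were not searched. Whether any match bears on how the pairs varied across libraries was not tested. Entries were found for 6 of the 7 genes; Vwf is named only.

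Levels are given as FPKM, fragments scaled to gene length and library depth, which allows genes to be compared per length. Ldha stood far above the others, at a mean of 614.7 FPKM over the 6 libraries and place 90 among all 21417 genes. Slc2a1 followed at 70.2 FPKM, Vegfa at 40.6 and Hif1a at 32.9. The endothelial genes were lower still, with Vwf at 5.35 FPKM, Flt1 at 4.79 and Kdr at 4.64, at places 8959, 9389 and 9518. Ldha was first in all 6 libraries, and the 3 endothelial genes filled the last 3 places in all 6. Within those limits the order was not fixed. Slc2a1 was second in 5 libraries but came after Hif1a and Vegfa in MCA replicate 2. Vegfa exceeded Hif1a in 4 libraries, and in MCA replicate 2 and suture replicate 2 the ratio of Vegfa to Hif1a was 0.998 and 0.999. Among the endothelial genes Vwf was highest in 5 libraries and lowest in MCA replicate 3. The ranges over libraries thus overlapped among Slc2a1, Vegfa and Hif1a and among the endothelial genes, but not between Hif1a, at 17.7 FPKM or more, and Vwf, at 9.16 FPKM or less.

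**Figure D1:**
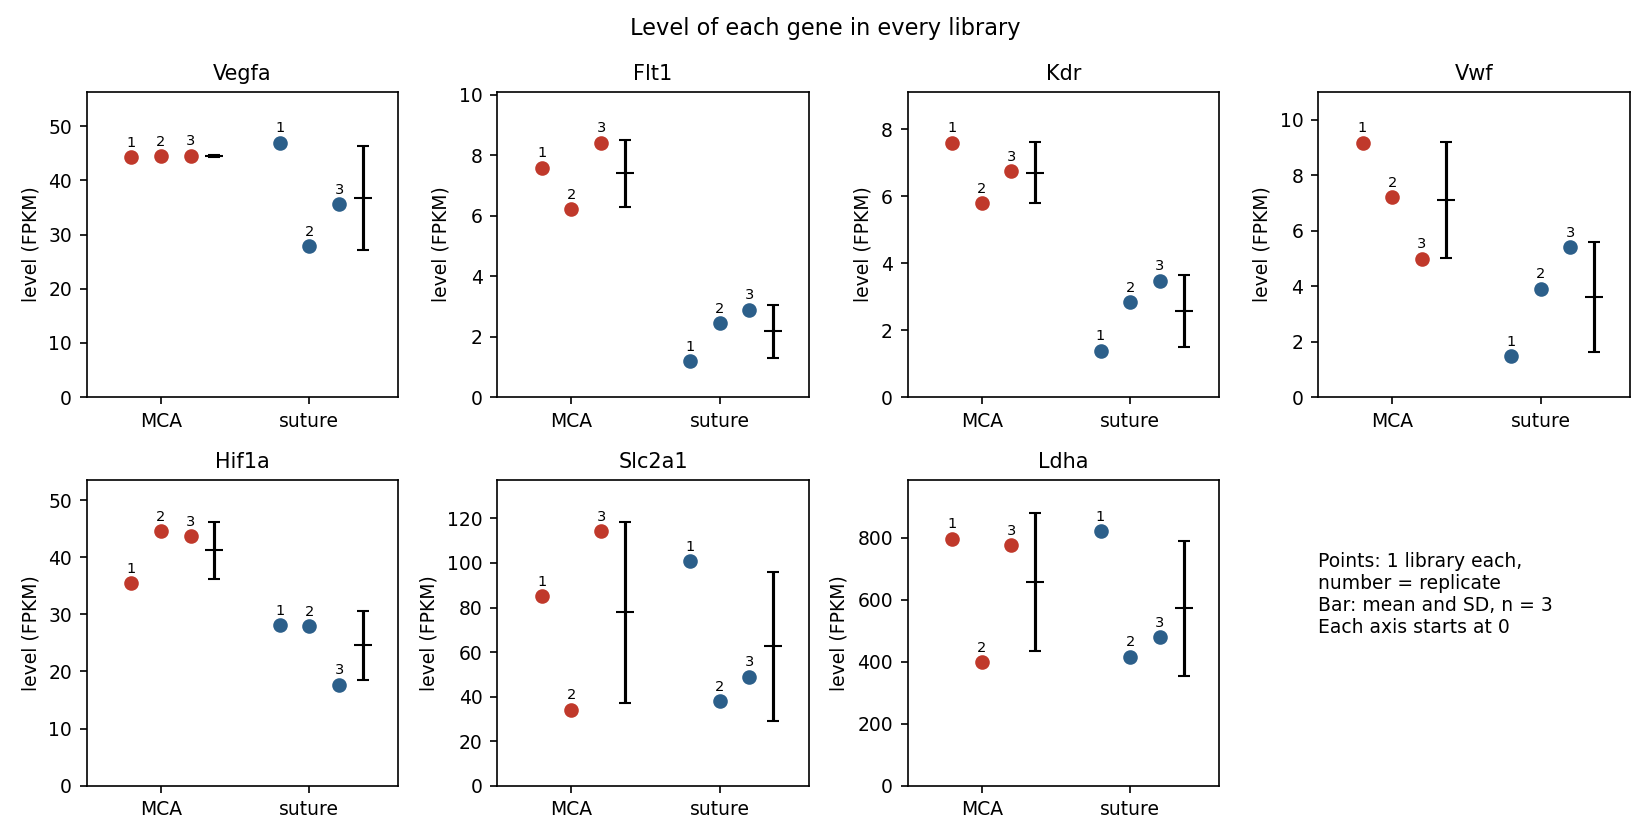
Level of each of the 7 genes in FPKM (vertical axes, each from 0) in the 3 MCA and 3 suture libraries; points are libraries numbered by replicate, and bars are the mean and SD (n = 3). Flt1, Kdr and Hif1a show no overlap between groups, whereas Slc2a1 and Ldha are low in MCA replicate 2 and suture replicates 2 and 3.

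The receptor transcripts gave the widest separation of the groups. Both were present in every MCA library at no less than 1.66 times the highest suture library, while Vegfa itself overlapped between groups. The comparison asked whether expression at the join differed between the 2 ways of making it, and was run with limma on log2(FPKM + 1) over 13591 genes that averaged 1 FPKM or more, a filter that all 7 genes passed. None of the 7 passed an adjusted p of 0.05, nor did any other gene tested, a background of 0% (limma, and likewise 0 with limma-voom on recovered fragments). At an unadjusted limma p under 0.05 there were 3 of the 7, Flt1, Kdr and Hif1a, where 4.91% of all genes tested reached it and 3.5% did so with a higher level in MCA. The same 3 had groups without overlap, against 8.7% of all genes, or 6.18% for genes without overlap that were higher with MCA. All 7 differences were positive, with a median of 0.75 on the log2 scale, beside a median of -0.02 over all genes tested. The 7 were chosen with earlier results of these data known, so these counts describe them and test nothing. Here and below, a lower level in bulk tissue cannot tell fewer cells of a type from less RNA per cell.

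Flt1 measured 7.59, 6.21 and 8.41 FPKM in MCA replicates 1, 2 and 3. In suture replicates 1, 2 and 3 it measured 1.18, 2.45 and 2.89 FPKM. Every MCA library was above every suture library, and the lowest MCA value was 2.15 times the highest suture value. The group means were 7.40 ± 1.11 FPKM (SD, n = 3) for MCA and 2.17 ± 0.888 (SD, n = 3) for suture, a ratio of 3.40. The log2 difference was 1.44 (standard error 0.28, 95% interval 0.78 to 2.10). Its unadjusted p was 0.00132 and its adjusted p 0.272 (limma), which misses the threshold. By size of upward difference it was in place 151 of 13591 genes. The exact permutation test over libraries gave p = 0.1, the smallest that 3 against 3 allows.

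Kdr, the signalling receptor, ran closely beside Flt1. MCA replicates 1, 2 and 3 held 7.60, 5.79 and 6.75 FPKM of it. The suture libraries held 1.39, 2.84 and 3.48 FPKM in the same order. The groups again did not overlap, and the lowest MCA library stood 1.66 times above the highest suture library. The means were 6.71 ± 0.906 FPKM (SD, n = 3) and 2.57 ± 1.07 (SD, n = 3), a ratio of 2.61. The log2 difference was 1.15 (standard error 0.29), with an interval of 0.48 to 1.83, an unadjusted p of 0.00496 and an adjusted p of 0.486 (limma). The exact permutation p was also 0.1. Suture replicate 1 was the lowest library for both receptors. Without it the log2 differences were 1.19 for Flt1 and 0.89 for Kdr. Groups that do not overlap cannot come to overlap when a library is left out.

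Vwf, a clotting glycoprotein stored and released by endothelial cells, was less clearly separated than the receptors. Across MCA replicates 1, 2 and 3 its level was 9.16, 7.21 and 4.98 FPKM. Across suture replicates 1, 2 and 3 it was 1.48, 3.91 and 5.40 FPKM. Suture replicate 3 exceeded MCA replicate 3, so the groups overlapped, although MCA was higher in 8 of the 9 pairs of libraries. The means were 7.12 ± 2.09 FPKM (SD, n = 3) and 3.59 ± 1.98 (SD, n = 3), a ratio of 1.98. The log2 difference of 0.89 had an interval of -0.04 to 1.83 and an unadjusted p of 0.058, adjusted p 1.00 (limma). The exact permutation p was 0.2. Suture replicate 1 weighed on this value, which was 0.50 when that library was left out. The unadjusted limma p was then 0.158.

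Within-library ratios, which no scaling between libraries can move, set the endothelial genes against each other. Flt1 to Kdr was 0.999, 1.07 and 1.25 in the MCA libraries, replicates in order, and 0.849, 0.864 and 0.830 in those with suture. It was thus near 1 throughout, spanned 1.50-fold over all libraries, and was higher in every MCA than in every suture library. The geometric mean of the ratio with MCA was 1.30 times that with suture (exact permutation p = 0.1, adjusted p = 0.267 over the 8 ratios computed). Counting alone leaves a relative error of 8.84% on Flt1 at its lowest, 128 fragments, and of 8.54% on Kdr at its lowest, 137 fragments, both in suture replicate 1. The counting error of their ratio is larger than either, and whether it covers the gap between groups was not tested. Vwf to Kdr ranged from 0.739 in MCA replicate 3 to 1.55 in suture replicate 3 and overlapped between groups (exact permutation p = 0.4, adjusted p = 0.533).

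The receptors ordered the libraries alike except for the first 2 places, which went to MCA replicate 3 and then 1 for Flt1 and to MCA replicate 1 and then 3 for Kdr. In both, the 3 suture libraries ranked replicate 3, then 2, then 1, and MCA replicate 2 was the lowest of the MCA libraries. Ranked by likeness to Kdr over the 6 libraries (Pearson correlation of log2(FPKM + 1)) among the 13590 other genes tested, Flt1 was in place 4 and Vwf in place 239. Ranked by likeness to Flt1, Kdr was in place 8 and Vwf in place 625. Vegfa was in place 4570 for Kdr and 3887 for Flt1. The libraries share their normalisation, and for the receptors they do not overlap between groups, so no correlation coefficient is given. The largest gap between neighbouring libraries lay between the groups for Flt1. For Kdr and Vwf it lay above suture replicate 1 alone, and how far that library sets these places was not tested.

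**Figure D2:**
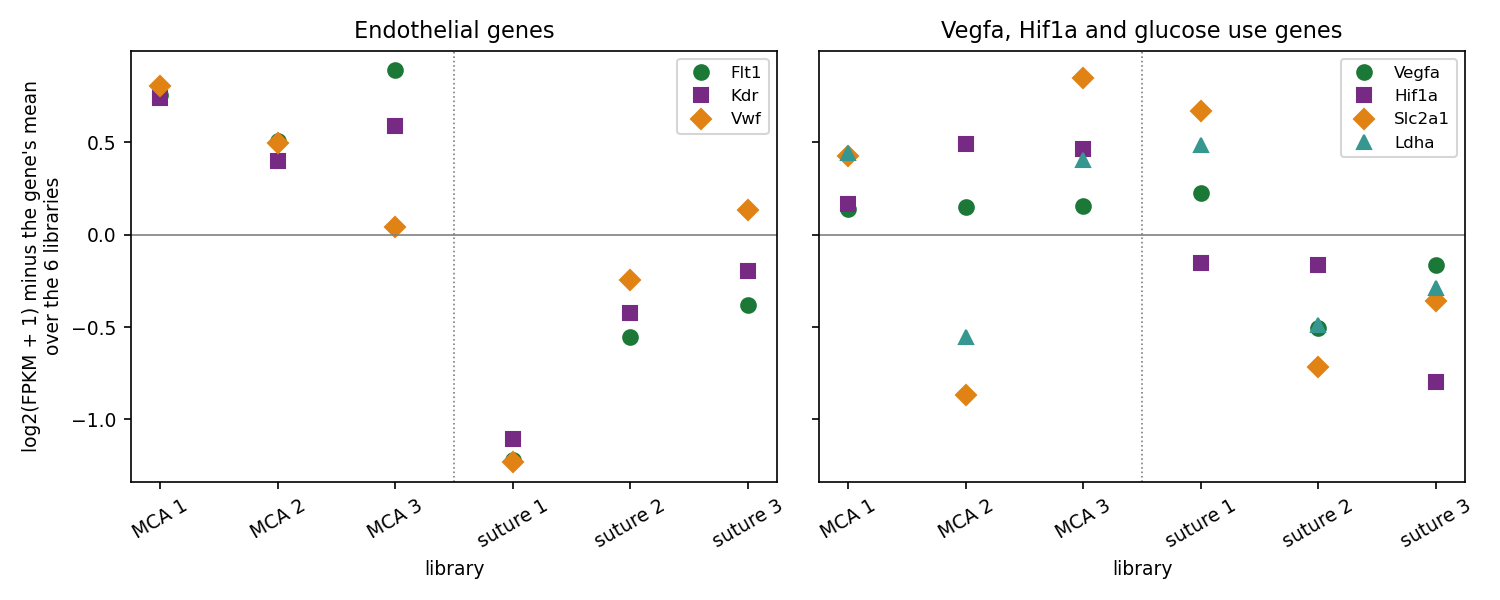
Each gene's log2(FPKM + 1) minus its own mean over the 6 libraries (vertical axis) by library (horizontal axis), with the 3 endothelial genes on the left and the other 4 on the right. Flt1 and Kdr lie above 0 in the MCA libraries and below it in the suture libraries, while Slc2a1 and Ldha lie above 0 in MCA replicates 1 and 3 and suture replicate 1.

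Vegfa, the ligand, was nearly the same in the 3 MCA libraries, at 44.2, 44.4 and 44.6 FPKM. That spread was smaller than counting error alone gives for the 2343 to 2476 fragments behind these values. The suture libraries spread from 27.9 FPKM in replicate 2 through 35.6 in replicate 3 to 46.9 in replicate 1, and that last value was the highest of all 6. The groups therefore overlapped. Means were 44.4 ± 0.180 FPKM (SD, n = 3) for MCA and 36.8 ± 9.57 (SD, n = 3) for suture, a ratio of 1.21. The log2 difference of 0.30 had an interval of -0.30 to 0.89 and an unadjusted limma p of 0.281, adjusted p 1.00 (exact permutation p = 0.4). Leaving out suture replicate 1 gave 0.48, and leaving out suture replicate 2 gave 0.12, with unadjusted limma p of 0.114 and 0.677. Without suture replicate 1, the highest library, the groups did not overlap. Fewer libraries separate more easily, and the share of all genes without overlap was not counted for that setting. With all libraries, a difference of 2-fold in either direction lay outside the interval on this scale.

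Relative to its receptors, Vegfa was lower with MCA, although its own mean was higher there. The ratio of group means was 1.21 for Vegfa, 3.40 for Flt1 and 2.61 for Kdr. The ratios below therefore restate the receptor difference and are not a separate result about Vegfa. Vegfa to Kdr was 5.82, 7.68 and 6.61 in the MCA libraries, replicates in order, and 33.7, 9.82 and 10.2 in those with suture. Vegfa to Flt1 was 5.83, 7.16 and 5.30 with MCA, and 39.7, 11.4 and 12.3 with suture, in the same order. Neither ratio overlapped between groups. On the log2 scale the MCA mean was below the suture mean by 1.17 for Kdr (log2 difference -1.17) and by 1.55 for Flt1 (log2 difference -1.55). Each had an exact permutation p of 0.1 and an adjusted p of 0.267, so neither passed. Suture replicate 1, which had the most Vegfa and the least receptor transcript, carried much of the size. Without it the differences were -0.59 and -0.97. Separate groups stay separate when a library is left out, so the lack of overlap there adds nothing.

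**Figure D3:**
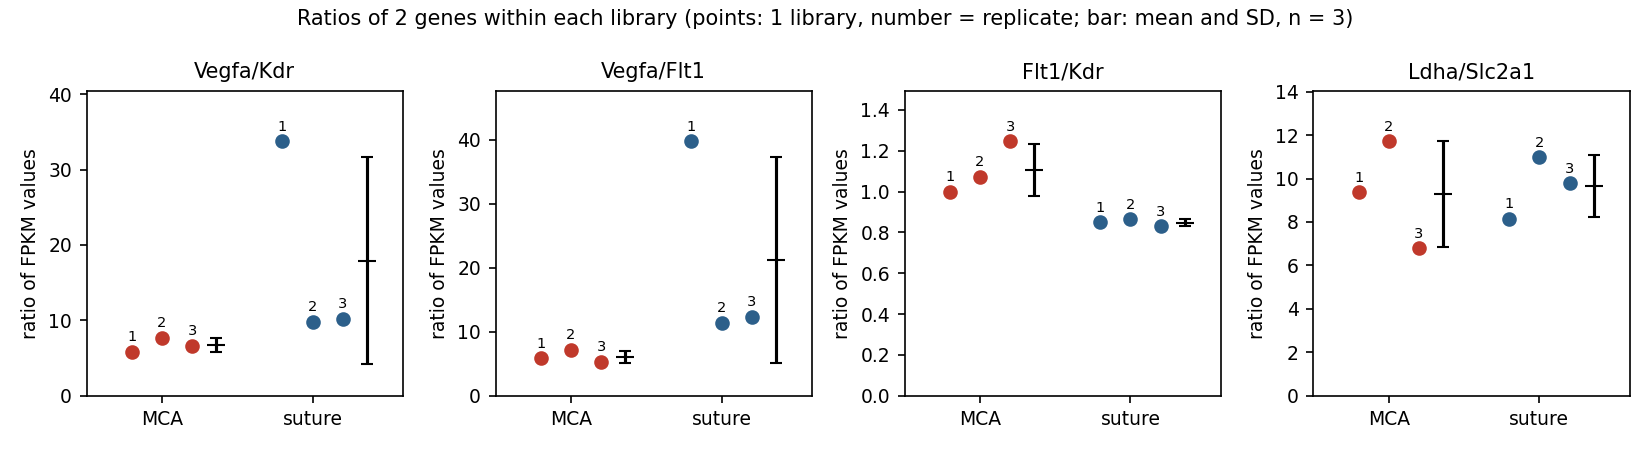
Ratio of the FPKM values of 2 genes within each library (vertical axes from 0) for Vegfa to Kdr, Vegfa to Flt1, Flt1 to Kdr and Ldha to Slc2a1; points are libraries numbered by replicate and bars are the mean and SD (n = 3). Suture replicate 1 stands apart at 33.7 for Vegfa to Kdr and 39.7 for Vegfa to Flt1, and the other suture libraries still lie above all MCA libraries in those 2 ratios.

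Hif1a transcript measured 35.4, 44.5 and 43.7 FPKM in MCA replicates 1, 2 and 3. In suture replicates 1, 2 and 3 it measured 28.1, 27.9 and 17.7 FPKM. The groups did not overlap, but the lowest MCA library was only 1.26 times the highest suture library. The means were 41.2 ± 5.03 FPKM (SD, n = 3) and 24.6 ± 5.97 (SD, n = 3), a ratio of 1.68. The log2 difference of 0.75 had a standard error of 0.26 and an interval of 0.13 to 1.37, with an unadjusted limma p of 0.025 and an adjusted p of 0.827 (exact permutation p = 0.1). Leaving out 1 library moved its unadjusted limma p to 0.0502 for MCA replicate 2, to 0.0678 for MCA replicate 3 and to 0.082 for suture replicate 3. When libraries were rescaled without the 7 most abundant genes of the table, the Hif1a groups overlapped (log2 difference 0.80).

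Slc2a1, the glucose transporter GLUT1, split the libraries in another way. The MCA libraries, replicates in order, held 85.1, 34.1 and 114.2 FPKM, and the suture libraries 100.7, 37.9 and 49.0 FPKM. MCA replicates 1 and 3 and suture replicate 1 were high, the other 3 libraries were low, and both sets held libraries of both groups. Group means were 77.8 ± 40.6 FPKM (SD, n = 3) for MCA and 62.5 ± 33.5 (SD, n = 3) for suture. The log2 difference was 0.27 with an interval of -1.01 to 1.56 (unadjusted limma p = 0.632, adjusted p = 1.00, exact permutation p = 0.8), which is too wide to exclude a 2-fold difference in either direction.

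Ldha, which makes lactate from pyruvate, divided the libraries in the same way. The MCA libraries, replicates in order, held 796.6, 399.1 and 776.0 FPKM, and the suture libraries 820.8, 416.5 and 479.2 FPKM. The high set was again MCA replicates 1 and 3 with suture replicate 1, and no library lay between 479.2 and 776.0 FPKM. Group means were 657.2 ± 223.8 FPKM (SD, n = 3) for MCA and 572.2 ± 217.6 (SD, n = 3) for suture. The log2 difference was 0.20 with an interval of -0.84 to 1.23 (unadjusted limma p = 0.668, adjusted p = 1.00, exact permutation p = 1). The reference table lists 30 Ldha pseudogenes, and how reads shared with them were counted is not known here, so the Ldha level is uncertain to that extent.

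The ratio of Ldha to Slc2a1 stayed between 6.80 and 11.7 in all 6 libraries and overlapped between groups (exact permutation p = 0.8, adjusted p = 0.8). By likeness over the 6 libraries, Slc2a1 was in place 24 for Ldha among 13590 genes, and Ldha in place 26 for Slc2a1. Both genes divided the libraries into the same high and low sets, and these places cannot be told apart from that shared split. Neither ran beside Hif1a, which was in place 7147 for Ldha and 7056 for Slc2a1. The places differ by direction: ranked by likeness to Hif1a, Ldha was in place 3549 and Slc2a1 in place 3556. Ranked by likeness to Vegfa, Ldha was in place 548, Slc2a1 in 706 and Hif1a in 1358. In the other direction Vegfa was in place 3674 for Ldha, 4057 for Slc2a1 and 1408 for Hif1a. The ratios to Hif1a overlapped between groups too. Slc2a1 to Hif1a ran from 0.765 in MCA replicate 2 to 3.58 in suture replicate 1 (exact permutation p = 0.5, adjusted p = 0.571). Ldha to Hif1a ran from 8.96 to 29.2 in the same 2 libraries (exact permutation p = 0.3, adjusted p = 0.48). Vegfa to Hif1a ran from 0.998 in MCA replicate 2 to 2.02 in suture replicate 3 (exact permutation p = 0.3, adjusted p = 0.48).

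**Figure D4:**
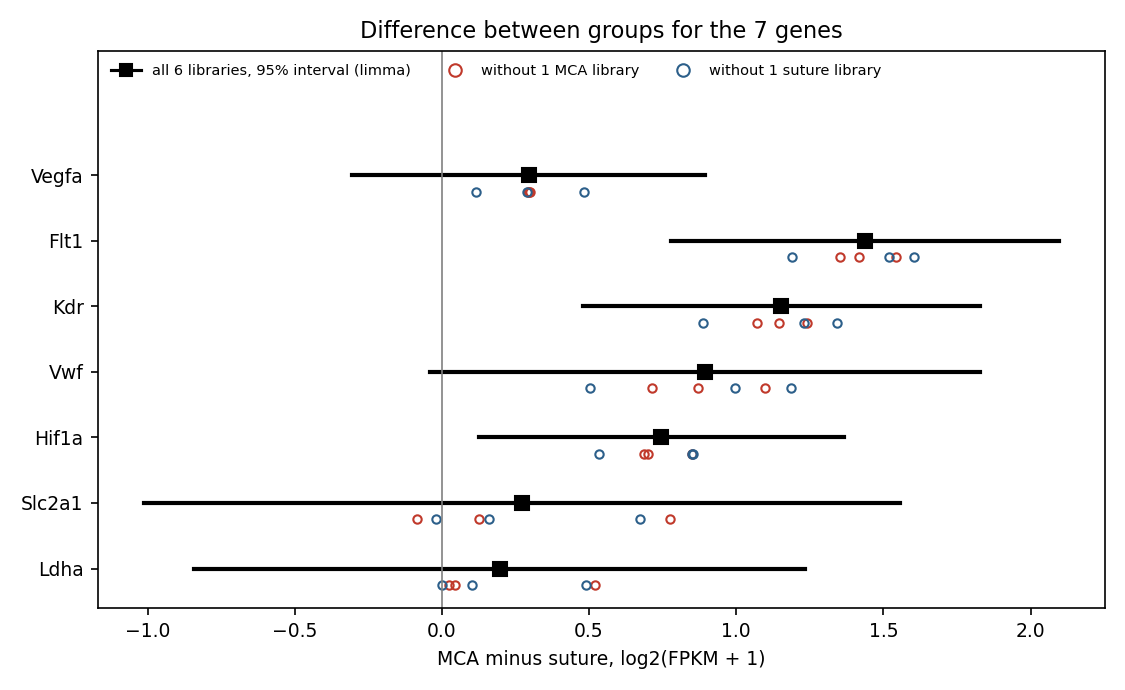
MCA minus suture difference of each gene in log2(FPKM + 1) (horizontal axis); squares and lines are the value and 95% interval from all 6 libraries (limma), and open circles are the values with 1 library left out. The intervals of Flt1, Kdr and Hif1a lie above 0 before adjustment, and the values for Slc2a1 run from -0.08 to 0.77 as single libraries are left out.

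Depth did not differ much between libraries. Library totals recovered from the FPKM values were 14867454 to 15791079 fragments, and between 128 and 20434 fragments stood behind each value of the 7 genes. The 7 most abundant genes of the table took from 18.67% of the FPKM in suture replicate 1 to 37.32% in suture replicate 2. That share was 18.67% to 20.4% in MCA replicate 1 and suture replicates 1 and 3, and 30.63% to 37.32% in the other 3 libraries. With the libraries rescaled without those genes, the log2 differences were 1.56 for Flt1, 1.25 for Kdr, 0.97 for Vwf, 0.80 for Hif1a and 0.34 for Vegfa, and the Vwf groups no longer overlapped. MCA replicate 2 received the lowest of limma's library quality weights, 0.29, against 0.656 to 4.31 for the others. Without it, the log2 differences were 1.54 for Flt1, 1.24 for Kdr, 0.87 for Vwf and 0.69 for Hif1a, and they reached 0.77 for Slc2a1 and 0.52 for Ldha, with no adjusted p under 0.05 (limma). Other vascular and hypoxia genes and the markers of other cells of the bowel wall could not be matched to identifiers and are not analysed here, so the part of tissue makeup was not tested.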

How the data were processed

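RNA from 3 MCA and 3 suture anastomoses was sequenced in 6 libraries. Per the labels' protocols, TRIzol RNA and NEBNext Ultra libraries were used on a DNBSEQ-T7 instrument, and the authors deposited normalized FPKM values. The submitters' processing notes name limma with no role. Not given in the sources used here are the aligner, counter, annotation, strand setting and build.

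Groups and replicate numbers came from the labels. Fragments were recovered from the FPKM values: for all 21417 genes a whole gene length gave whole fragments within 0.0001. Genes averaging 1 FPKM or more were kept (13591; 7826 removed). Groups were compared with limma 3.58.1 in R 4.3.3 on log2(FPKM + 1) (two-sided, empirical Bayes with a trend), adjusting p by Benjamini-Hochberg across all genes kept; fold changes on this scale understate those of low genes. Single values and 8 within-library ratios were tested by exact permutation over libraries, two-sided. Fragment recovery and the limma fit were tested on simulated data. Alternatives covered pseudocounts, filters, scalings, quality weights, limma-voom on recovered fragments, a replicate block and leaving out each library. Intervals from fragments cover counting error only. All 7 genes are named, and the genes, lists and tests were chosen with earlier results of these data known. Python 3.11.15, numpy 2.4.6, pandas 2.3.3, scipy 1.17.1 and matplotlib 3.10.9 were used.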

Additional observations from a re-analysis of the deposited data

How the results depend on the processing

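No member passed the adjusted threshold in any of the 16 alternatives run (limma), while 1 to 4 had an unadjusted p under 0.05 there and 3 in the test as reported. The lowest count came when a mean of 5 FPKM was required, since Flt1 and Kdr were then not tested. Of all genes tested there, 334 of 9229 had an unadjusted limma p under 0.05. With single libraries left out, 511 to 1065 of 13591 genes did. Counts over all genes moved too: quality weights, which gave 4 members, gave 1360 of 13591 genes at that level and 35 past the adjusted threshold, against 667 and 0 as reported. Median-ratio scaling also gave 4 members, with 735 of 13573 genes. The differences stayed positive in all alternatives run for Vegfa (0.12 to 0.48), Flt1 (1.19 to 1.85), Kdr (0.89 to 1.48), Vwf (0.50 to 1.19) and Hif1a (0.53 to 0.85). Flt1 and Kdr stayed at an unadjusted p under 0.05 in the 15 alternatives that tested them, with adjusted p from 0.0797 to 0.74 and from 0.147 to 1.00; the lowest came with quality weights. Hif1a did so in 13 of 16 and Vwf in 4 of 16. With single libraries left out, Slc2a1 ran from -0.084 to 0.774 and turned sign without MCA replicate 3 (-0.084) or suture replicate 2 (-0.0196). Ldha ran from -3.82e-08, in effect 0, without suture replicate 2 to 0.522. The MCA minus suture difference in the log2 ratio of Slc2a1 to Hif1a ran from -0.901 to 0.074 and turned sign without MCA replicate 2. For the log2 ratio of Ldha to Slc2a1 the difference ran from -0.263 to 0.129. It turned sign without MCA replicate 3 (0.129) or suture replicate 2 (0.0216). The cause was not tested. None of the 8 ratios passed in any alternative; these designs cannot give an exact permutation p below 0.1. The replicate number as a block left 0 members past the threshold, with an adjusted limma p of 0.308 for Flt1 and 0.42 for Kdr. With the block, 1141 of 13591 genes had an unadjusted limma p under 0.05, against 667 without it. Deviations from the group means correlated at 0.42, 0.53 and -0.0016 between same-numbered libraries. Between differently numbered libraries they ran from -0.47 to 0.28, the last for MCA replicate 3 with suture replicate 1. The labels do not say what a replicate number shares, so the main test did not pair the numbers. Whether they mark a shared factor was not tested. Of the 21 pairs of members, 0 passed an adjusted permutation p of 0.05 for a Pearson correlation over the libraries, and 4 did so unadjusted. The 4 were Flt1 with Kdr, Kdr with Vwf, Flt1 with Vwf, and Slc2a1 with Ldha. The permutation moved libraries across groups, so it does not separate a correlation from a shared difference between groups. The share over all gene pairs was not computed, so this count describes the members only. Rescaling without the 7 most abundant genes was chosen after seeing the data. Counting error was at most 8.84% of any value of the 7 genes.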
